A study of Mus musculus with 3 samples.

Results

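The 9 genes described here make up the core of transforming growth factor beta (TGF-beta) signalling: the ligands Tgfb1, Tgfb2 and Tgfb3, the latent TGF-beta binding protein Ltbp1, the receptors Tgfbr1, Tgfbr2 and Tgfbr3, and the intracellular mediators Smad3 and Smad7. They were chosen by name among the 22535 genes of the count tables, and each was followed gene by gene through every marker-defined cell class of the mouse kidney. The study asked how parietal epithelial cells (PECs, the cells that line Bowman's capsule) and other kidney cells responded to ischemia-reperfusion injury (IRI). Single cells were prepared from the kidney cortex of adult WT1CreERT2; Rosa26-tdTfl/+ mice given tamoxifen, in which Cre recombinase is driven from the Wt1 locus and turns on the red reporter tdT in podocytes and in those PECs that express Wt1. All 3 libraries carried these alleles and this treatment. The library named Sham came from sham-operated kidney, and the library named IRI24h-TDN from kidney 24 h after severe bilateral IRI; in both, sorted tdT+ cells were mixed back with tdT- cells, so that tdT+ cells were enriched. The library named IRI24h-TD held tdT+ cells alone, also 24 h after IRI. Each group stood for 4 kidneys, and how many mice they came from and the ages of the mice were not given in the sources used here.

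Each condition was a single library, so no difference between conditions had a replicate check and no test was possible. Levels are given as CPM, the unique molecular identifiers (UMIs) of a gene per 1000000 UMIs of the cells concerned. Intervals are exact 95% intervals, Poisson for levels and binomial for shares and for differences between libraries, and they cover counting error only. Where no UMI or cell was found, the limit given is a floor of 3 counts. A difference was called when it passed 2-fold in a gene with 30 or more UMIs in the 2 libraries together, and the share of all genes past 2-fold in the same cells is printed beside each count.

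TGF-beta is secreted as a latent complex in which the ligand stays bound to its own propeptide, and latent binding proteins such as Ltbp1 tether that complex to the extracellular matrix until integrins or thrombospondin release it. Free ligand binds the type II receptor Tgfbr2, which phosphorylates the type I receptor Tgfbr1, and Tgfbr3 (betaglycan) presents ligand, Tgfb2 above all, to that pair. The activated type I receptor phosphorylates Smad2 and Smad3, which enter the nucleus with Smad4, while Smad7 is an inducible inhibitor that blocks the type I receptor. In the injured kidney the pathway is known for its part in matrix production, fibrosis and epithelial dedifferentiation.

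The tables of Sham, IRI24h-TDN and IRI24h-TD held 10062, 10062 and 9884 barcodes, of which 26760 had 200 or more genes and 50% or fewer mitochondrial UMIs. Of these, 8047 came from Sham, 9024 from IRI24h-TDN and 9689 from IRI24h-TD, with median depths of 7746, 9151 and 9529 UMIs. Between 102 and 114 barcodes occurred in each pair of libraries. Clustering and fixed marker genes gave 13 cell classes, and 836 cells stayed unnamed. Podocyte-like cells were by far the most numerous, with 18374 cells (4392, 5172 and 8810 in the same order), followed by 1322 PEC-like cells (747, 255 and 320) and 1305 cells like proximal tubular epithelial cells (PTECs; 1068, 143 and 94). Of the distal nephron there were 664 ascending limb-like, 518 distal convoluted tubule-like, 594 connecting tubule-like and 550 cells of intercalated type. The connecting tubule list also holds markers of the principal cells of the collecting duct. Its class was led by Aqp2, Hsd11b2, Fxyd4 and Aqp3, so the name connecting tubule-like covers principal cells here too. Outside the epithelium there were 773 smooth muscle-like, 317 endothelial-like and 110 fibroblast-like cells. The blood lineages gave 1230 monocytic-like, 113 lymphocyte-like and 54 neutrophil-like cells. Smooth muscle-like cells also carried the mesangial marker list, at 2151 CPM beside 29484 CPM of their own list. In each of their clusters the mesangial list scored second, and mesangial cells were not set apart from this class. The class sizes follow from the sort and are not compared between libraries. The fibroblast-like cells of IRI24h-TD were 22 in number and carried more UMIs of the PEC marker list (6419 CPM) than of the fibroblast list (3962 CPM), so that the label of these cells is doubtful and their values are given apart where the order of classes turns on them. Pooled over libraries, some whole classes carried more of the podocyte marker list than of their own list. The podocyte and own lists stood at 13972 and 12997 CPM in endothelial-like cells. They stood at 5883 and 1914 CPM in lymphocyte-like cells and at 16860 and 15034 CPM in neutrophil-like cells. The part of this podocyte RNA in the levels of these classes was not tested, apart from Tgfbr3 below.

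On the GRCm38 genome Tgfb1 lies at chr7:25687002-25705077 on the plus strand, Tgfb2 at chr1:186622792-186705989 on the minus strand, Tgfb3 at chr12:86056745-86079041 on the minus strand and Ltbp1 at chr17:75005568-75392512 on the plus strand. The receptor genes lie at chr4:47353222-47414931 on the plus strand (Tgfbr1), chr9:116084293-116175360 on the minus strand (Tgfbr2) and chr5:107106570-107289629 on the minus strand (Tgfbr3), and Smad3 at chr9:63646767-63757994 on the minus strand. The coordinates of Smad7 are not given here. All 9 genes are annotated as protein coding. Tgfb2 shares exonic sequence with the antisense gene Gm29491, which had 3 UMIs in all cells together, and the strand setting of the counting was not given in the sources used here. Tgfb3 and Tgfbr3 also overlap annotated genes in their exons (Gm37804 and Gm48008 for the first and Gm43422 for the second), which are not listed in the tables.

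The 250 bases before the annotated start are shown for Tgfb1, Tgfb2 and Ltbp1, the members that encode secreted factors and had a reference entry. They are RefSeq sequences of build GRCm38.p6, written 5′ to 3′ on the strand of the gene, and capitals mark the motif matches described after them. The windows are chr7:25686752-25687001 on the plus strand for Tgfb1, chr1:186705990-186706239 on the minus strand for Tgfb2 and chr17:75005279-75005528 on the plus strand for the first of the 2 listed starts of Ltbp1.
Tgfb1: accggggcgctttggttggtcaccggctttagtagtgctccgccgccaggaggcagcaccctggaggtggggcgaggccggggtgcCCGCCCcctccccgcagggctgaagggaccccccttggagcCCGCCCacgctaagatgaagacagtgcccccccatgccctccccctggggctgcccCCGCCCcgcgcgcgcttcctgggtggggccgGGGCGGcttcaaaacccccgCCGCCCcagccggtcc
Tgfb2: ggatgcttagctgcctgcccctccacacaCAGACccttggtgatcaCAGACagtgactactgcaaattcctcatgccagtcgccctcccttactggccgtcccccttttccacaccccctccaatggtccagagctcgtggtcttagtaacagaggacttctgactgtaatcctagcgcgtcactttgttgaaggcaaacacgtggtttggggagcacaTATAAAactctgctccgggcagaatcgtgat
Ltbp1: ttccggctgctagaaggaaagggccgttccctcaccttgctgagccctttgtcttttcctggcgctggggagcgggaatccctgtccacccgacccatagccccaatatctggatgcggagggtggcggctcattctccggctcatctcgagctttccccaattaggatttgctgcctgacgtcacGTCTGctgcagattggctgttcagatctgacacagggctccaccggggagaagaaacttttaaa
A set of 5 motifs was searched on both strands: the AP-1 element TGACTCA, the Smad element CAGAC, the GC box GGGCGG, the TATA box TATAAA and the CArG box. The Tgfb1 window held 5 GC boxes and none of the other motifs, and its GC content was 75.2%. The Tgfb2 window held 2 Smad elements and a TATA box 31 bases before the start, with a GC content of 53.6%. The Ltbp1 window held 1 Smad element, read as GTCTG on the printed strand, with a GC content of 56.8%. Over all 32851 promoter windows of this length, 32.7% held a GC box, 42.2% a Smad element, 12.4% a TATA box, 4.46% an AP-1 element and 1.47% a CArG box, and the median GC content was 52.4%. A match is a description of the letters only.

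Across cell classes the ligands and Ltbp1 had their highest levels outside the epithelium. Tgfb1 was highest in monocytic-like cells, Tgfb2, Tgfb3 and Ltbp1 in smooth muscle-like cells. The receptors were spread differently: Tgfbr1 was highest in monocytic-like cells, Tgfbr2 and Tgfbr3 in fibroblast-like cells, with podocyte-like cells next for Tgfbr3. Smad3 was highest in PEC-like cells and Smad7 in endothelial-like cells. Under other settings the leading class changed for Tgfbr2 (to endothelial-like in 3), Tgfbr3 (to podocyte-like in 2), Smad3 (to ascending limb-like in 1 and lymphocyte-like in 1) and Tgfb2 (to endothelial-like in 1). Podocyte-like cells, which hold most cells of each library, were the lowest of the 13 classes for both Tgfbr1 and Smad7. The levels of different genes are not compared with each other, since no transcript lengths enter the CPM.

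**Figure D1:**
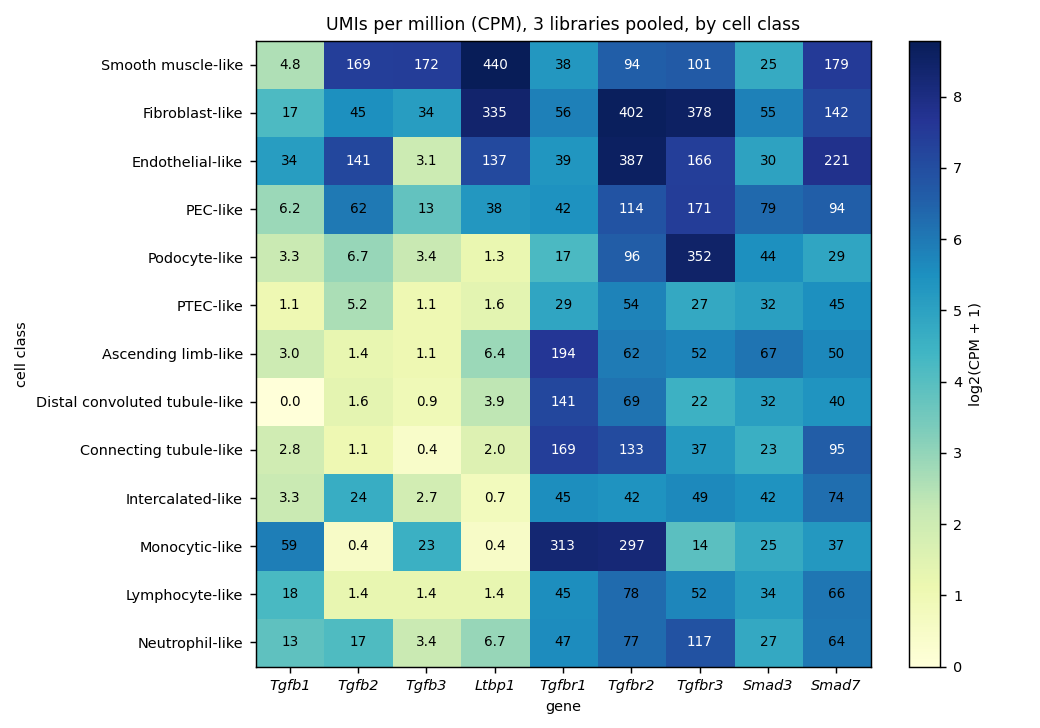
Level of each of the 9 genes (columns) in each of the 13 cell classes (rows), pooled over the 3 libraries, with the CPM printed in each cell and coloured as log2(CPM + 1). Ligands and Ltbp1 peak in smooth muscle-like or monocytic-like cells, and Tgfbr3 in fibroblast-like (378 CPM) and podocyte-like (352 CPM) cells.

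Tgfb1 encodes the ligand most studied in kidney fibrosis. Pooled over libraries, monocytic-like cells had 58.6 CPM (95% interval 53.3 to 64.4, 438 UMIs), with 42.6 CPM in Sham and 62.6 CPM in IRI24h-TDN. Endothelial-like cells followed with 34.4 CPM (31.5 and 36.8 CPM in the same libraries). The ranges of these 2 classes over libraries did not overlap, nor did those of endothelial-like and lymphocyte-like cells (17.8 CPM). Below them, lymphocyte-like, fibroblast-like (17.2 CPM) and neutrophil-like (13.4 CPM) cells overlapped one with the next. Every epithelial class was low: 6.2 CPM in PEC-like, 3.3 CPM in podocyte-like and 1.1 CPM in PTEC-like cells, and 0 UMIs in 518 distal convoluted tubule-like cells, which allows a level of up to 0.39 CPM by the floor of 3 counts. Within one library, monocytic-like cells held 52.6% of the 696 Tgfb1 UMIs of IRI24h-TDN, and podocyte-like cells 24.7%. These classes made up 10.1% and 57.3% of the cells of that library.

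Tgfb2 encodes the ligand that depends most on betaglycan for binding to the signalling receptors. Smooth muscle-like cells had 169 CPM (157 to 181, 767 UMIs), with 146 CPM in Sham and 179.6 CPM in IRI24h-TDN. Endothelial-like cells had 141 CPM, but their libraries lay far apart, at 199.8 CPM in Sham and 67.7 CPM in IRI24h-TDN, and 1 cell held 18.8% of the 181 UMIs. PEC-like cells were next with 61.9 CPM (75.2, 49.0 and 47.9 CPM in Sham, IRI24h-TDN and IRI24h-TD), followed by fibroblast-like (44.6 CPM) and intercalated-like (24.1 CPM) cells. Each class from smooth muscle-like down to fibroblast-like overlapped the next over libraries, and fibroblast-like and intercalated-like cells did not. PEC-like cells were thus the epithelial class with the highest Tgfb2, and in Sham they held 39.1% of its 1283 UMIs and made up 9.28% of the cells. Podocyte-like cells had 6.7 CPM and monocytic-like cells 0.40 CPM (3 UMIs).

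Tgfb3, the third ligand, stood out in a single class. Smooth muscle-like cells had 172 CPM (160 to 184, 781 UMIs), with 119 CPM in Sham and 205 CPM in IRI24h-TDN, and its pooled level was 5.0 times that of the next class. For Tgfb1 the highest class was 1.71 times the next, and for Tgfb2 1.19 times. Fibroblast-like cells had 34.3 CPM, and monocytic-like cells 22.6 CPM. The ranges of these 3 classes over libraries did not overlap. PEC-like cells were next with 12.8 CPM, at 15.9 CPM in Sham, 4.3 CPM in IRI24h-TDN (14 UMIs) and 14.8 CPM in IRI24h-TD (50 UMIs), and their range overlapped that of monocytic-like cells. In IRI24h-TD a single cell held 20 of the 50 UMIs, and without it the level was 8.9 CPM. All other classes had 3.4 CPM or less.

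Ltbp1, which anchors the latent complex in the matrix, had the same leading class as Tgfb2 and Tgfb3. Smooth muscle-like cells had 439.8 CPM (421 to 459, 2000 UMIs), with 372 CPM in Sham and 479.8 CPM in IRI24h-TDN. Fibroblast-like cells had 335 CPM, at 333 CPM in Sham, 371 CPM in IRI24h-TDN and 173 CPM in the 22 cells of IRI24h-TD. Endothelial-like (137 CPM) and PEC-like cells (38.4 CPM, at 35.9, 32.1 and 49.4 CPM in Sham, IRI24h-TDN and IRI24h-TD) completed the order, and none of these 4 classes overlapped the next over libraries, although the nearest values of smooth muscle-like and fibroblast-like cells (372 and 371 CPM) lay within counting error. Outside them Ltbp1 was at 6.7 CPM or less, with 1.3 CPM in podocyte-like cells. Smooth muscle-like cells held 72.0% of the Ltbp1 UMIs of IRI24h-TDN and made up 5.13% of its cells. PEC-like cells held 45.9% of the 364 UMIs of IRI24h-TD and made up 3.30% of its cells.

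**Figure D2:**
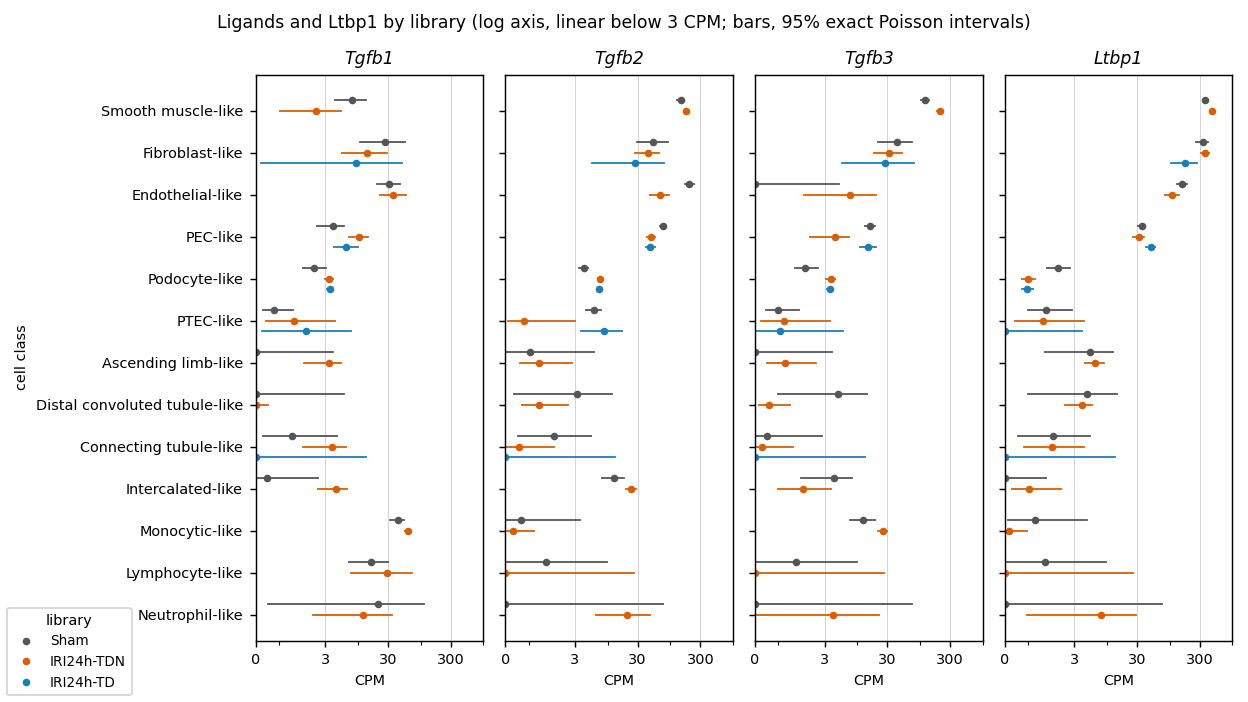
Level of Tgfb1, Tgfb2, Tgfb3 and Ltbp1 (panels) in each cell class with 20 or more cells in a library, in CPM on a log axis that is linear below 3 CPM. Points are the Sham, IRI24h-TDN and IRI24h-TD libraries and bars are exact 95% Poisson intervals, and Tgfb3 in PEC-like cells lies at 15.9 CPM in Sham, 4.3 CPM in IRI24h-TDN and 14.8 CPM in IRI24h-TD, where 1 cell held 20 of the 50 UMIs.

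Tgfbr1 is the kinase that passes the signal to Smad2 and Smad3. Monocytic-like cells had 313 CPM (301 to 326, 2340 UMIs), with 372 CPM in Sham and 298 CPM in IRI24h-TDN. Pooled over libraries, ascending limb-like cells came next with 194 CPM, then connecting tubule-like cells (169 CPM) and distal convoluted tubule-like cells (141 CPM). Monocytic-like cells did not overlap ascending limb-like cells over libraries, and these 3 distal classes overlapped in turn, each with its lowest value in Sham. Ascending limb-like and distal convoluted tubule-like cells stood there at 45.4 and 50.3 CPM, close to PEC-like cells (44.2 CPM). Their pooled levels come mostly from IRI24h-TDN, which held 514 of the 664 and 450 of the 518 cells. Intercalated-like cells, also of the distal nephron, had 45.0 CPM. All other classes lay between 56.1 CPM in fibroblast-like and 17.3 CPM in podocyte-like cells, with PEC-like cells at 42.2 CPM and nearly level over the libraries (44.2, 39.5 and 40.8 CPM).

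Tgfbr2 binds the ligand first. Fibroblast-like cells had 402 CPM (361 to 446, 351 UMIs), but with 176 CPM in Sham, 582 CPM in IRI24h-TDN and 109.6 CPM in IRI24h-TD their range overlapped that of endothelial-like cells. Endothelial-like cells had 387 CPM (426 CPM in Sham and 337 CPM in IRI24h-TDN), and monocytic-like cells 297 CPM (267 and 304 CPM). These 2 classes did not overlap each other, nor did monocytic-like and connecting tubule-like cells (133 CPM). PEC-like (114 CPM), podocyte-like (96.2 CPM) and smooth muscle-like cells (94.3 CPM) overlapped in turn. Tgfbr2 was measured in every class, and the lowest level was 41.8 CPM in intercalated-like cells.

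Tgfbr3, the betaglycan gene, was the member with the most UMIs, 66923 in all. Podocyte-like cells held 80.8% of those of Sham, 87.3% of those of IRI24h-TDN and 94.1% of those of IRI24h-TD. They made up 54.6%, 57.3% and 90.9% of the cells of these libraries, which follows from the sort. Podocyte-like cells had 352 CPM (349 to 355), at 308 CPM in Sham, 360.3 CPM in IRI24h-TDN and 366 CPM in IRI24h-TD. Fibroblast-like cells had 378 CPM, with 326 to 511 CPM over libraries, a range that overlapped podocyte-like cells. The highest of these values, 511 CPM, came from the 22 doubtful cells of IRI24h-TD. PEC-like cells had 171 CPM (178, 138 and 190.3 CPM). Podocyte-like and PEC-like cells did not overlap. Free podocyte RNA can give Tgfbr3 UMIs in other cells, and the list of 10 podocyte markers was read beside it, at 44134 CPM in podocyte-like, 13972 CPM in endothelial-like, 5627 CPM in fibroblast-like, 3380 CPM in PEC-like and 1916 CPM in monocytic-like cells. At the share of the list found in monocytic-like cells, podocyte RNA would carry 15.3 CPM of Tgfbr3, against 14.3 CPM measured. The measured level was 0.94 times the carried one there, 0.87 times in neutrophil-like, 1.11 times in lymphocyte-like and 1.49 times in endothelial-like cells. In PEC-like and fibroblast-like cells it was 6.36 and 8.42 times the carried one. Levels at or below the carried one are read as background.

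Smad3 transmits the signal, and its level differed less between classes than that of any other member. PEC-like cells had 79.4 CPM (74.7 to 84.4, 1057 UMIs), with 70.5, 89.7 and 87.2 CPM in Sham, IRI24h-TDN and IRI24h-TD. Ascending limb-like cells had 67.4 CPM, with a range over libraries that overlapped PEC-like cells, and fibroblast-like cells had 54.9 CPM. Podocyte-like cells had 44.5 CPM, and the lowest class, connecting tubule-like, had 23.2 CPM. Apart from fibroblast-like against podocyte-like cells, each class overlapped the next in the order.

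Smad7, the inhibitor of the type I receptor, was highest in endothelial-like and smooth muscle-like cells. Endothelial-like cells had 221 CPM (196 to 248, 283 UMIs), at 222 CPM in Sham and 230.2 CPM in IRI24h-TDN, and smooth muscle-like cells 179 CPM (158 and 196 CPM). Fibroblast-like cells had 142 CPM. Endothelial-like, smooth muscle-like and fibroblast-like cells did not overlap in turn over libraries, although the nearest values of the last pair (158 and 155 CPM) lay within counting error, and below them every class overlapped the next. Connecting tubule-like cells had 95.3 CPM, PEC-like cells 94.1 CPM and podocyte-like cells 28.7 CPM.

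**Figure D3:**
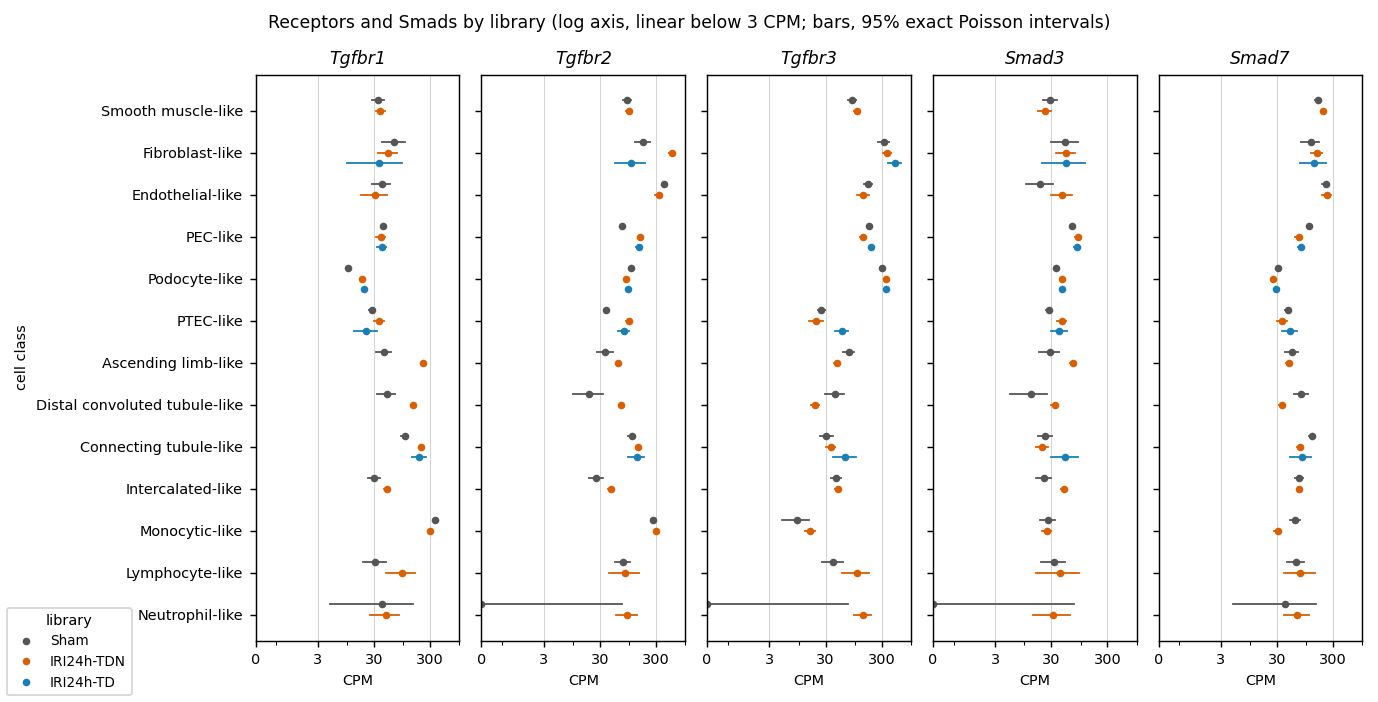
Level of Tgfbr1, Tgfbr2, Tgfbr3, Smad3 and Smad7 (panels) in each cell class with 20 or more cells in a library, in CPM on a log axis that is linear below 3 CPM. Points are the Sham, IRI24h-TDN and IRI24h-TD libraries and bars are exact 95% Poisson intervals, and Tgfbr1 in ascending limb-like cells lies at 45.4 CPM in Sham and 220.4 CPM in IRI24h-TDN.

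Several classes held more than 1 cluster, and the members differed between them. Of the 3 monocytic-like clusters, the 888 cells led by complement genes such as C1qa had 425 CPM of Tgfbr1, 387 CPM of Tgfbr2 and 32.2 CPM of Tgfb3. The 225 cells led by Chil3, Lyz2 and Ccr2 had 87.4, 99.1 and 3.2 CPM of the same genes, and the 117 cells led by H2-Ab1 and Xcr1 had 109, 153 and 5.1 CPM. Tgfb1 was closer between the 3 clusters, at 59.3, 65.4 and 44.7 CPM. The receptor and Tgfb3 levels of the class thus came mainly from its complement-expressing cluster.

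The PEC-like class was made of 637 cells led by Tnc, Adamts5 and Cp and 685 cells led by Gc and C3, which also carried proximal tubule markers. The first cluster had 86.3 CPM of Ltbp1, 30.2 CPM of Tgfb3 and 325 CPM of Tgfbr3, against 7.3, 1.5 and 71.9 CPM in the second. Tgfb2 was at 81.7 and 48.9 CPM. The order was turned for Tgfbr2, at 75.1 CPM in the first and 139 CPM in the second, and Smad3 was nearly level at 75.6 and 81.9 CPM. Among smooth muscle-like cells, the cluster led by Acta2 and Myh11 had 233 CPM of Tgfb2 and 243 CPM of Tgfb3, and the cluster led by the renin gene Ren1 and by Rgs5 had 109.6 CPM and 105 CPM. Ltbp1 was close in both, at 459 and 422 CPM. Intercalated-like cells led by Slc26a4 had 70.0 CPM of Smad3 and those led by Aqp6 had 6.9 CPM.

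**Figure D4:**
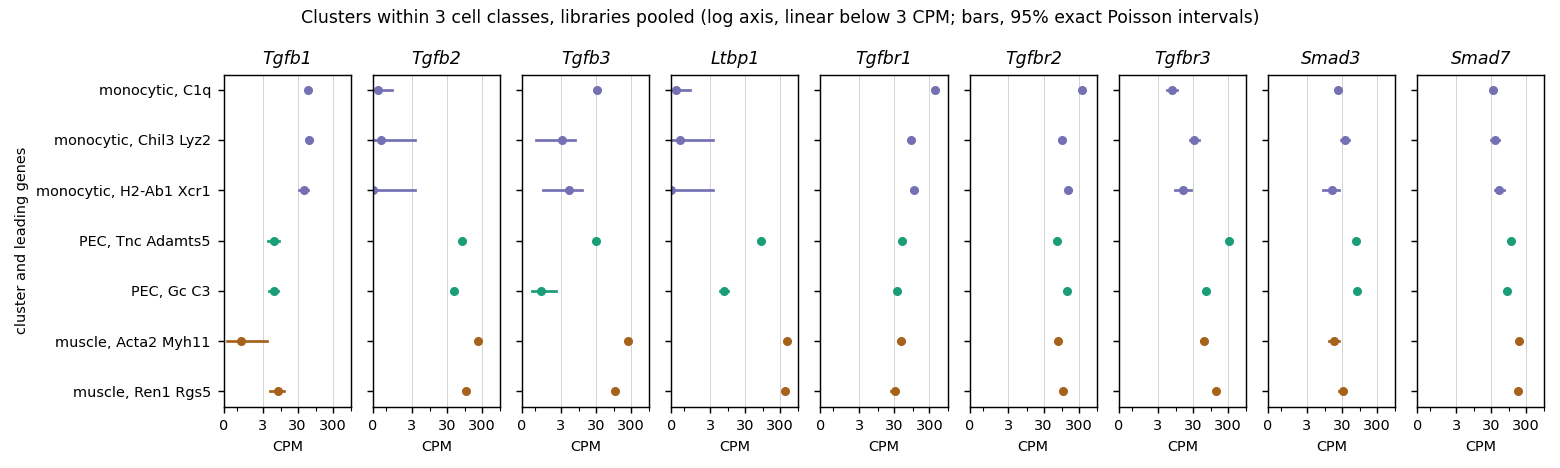
Level of the 9 genes (panels), pooled over libraries, in the separate clusters (rows) of the monocytic-like, PEC-like and smooth muscle-like classes, named by their leading genes, in CPM on a log axis that is linear below 3 CPM, with exact 95% Poisson intervals as bars. Tgfbr1 is 425 CPM in the complement-expressing monocytic-like cluster and 87.4 CPM in the Chil3 cluster.

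Shares of cells with a UMI depend on depth, so each cell was thinned to 2400 UMIs, and shallower cells were left out. After thinning, 54.6% of 17674 podocyte-like cells (median depth 9114 UMIs) had a Tgfbr3 UMI, against 2.25% of 1201 monocytic-like cells (5279.5 UMIs). Before thinning the shares were 88.5% and 5.28%. Ltbp1 was found in 60.5% of smooth muscle-like cells (78.5% before thinning) and in 0.17% of monocytic-like cells, at similar depths of 5262 and 5279.5 UMIs. Tgfbr1 and Tgfbr2 are needed together for a response, and both were found in the same thinned cell in 25.8% of monocytic-like cells (23.4 to 28.4%; 48.1% before thinning). The share was 33.6% in their complement-expressing cluster, 7.55% in connecting tubule-like cells and 0.80% in podocyte-like cells. In the 34 neutrophil-like cells deep enough to thin, no cell had both, which allows a share of up to 8.82% by the floor of 3 counts. A missing UMI at this depth does not show that a cell lacks the transcript.

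IRI24h-TDN was compared with Sham in the 9 classes with 50 or more cells in each library, which gave 64 pairs of a member and a class with 30 or more UMIs. Of these, 13 passed 2-fold (20.3%), 8 of them higher and 5 lower in IRI24h-TDN. The pairs lay in 7 classes. Over all genes the share past 2-fold ran from 8.88% to 27.5% by class, and with 5 to 9 members tested in a class the shares of members are coarse. The members that passed were Tgfbr1 in 1 class, Tgfbr2 in 2, Smad3 in 3, Tgfb2 in 2, Tgfb3 in 2 and Tgfb1, Ltbp1 and Smad7 in 1 each. Tgfbr3 passed in none.

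**Figure D5:**
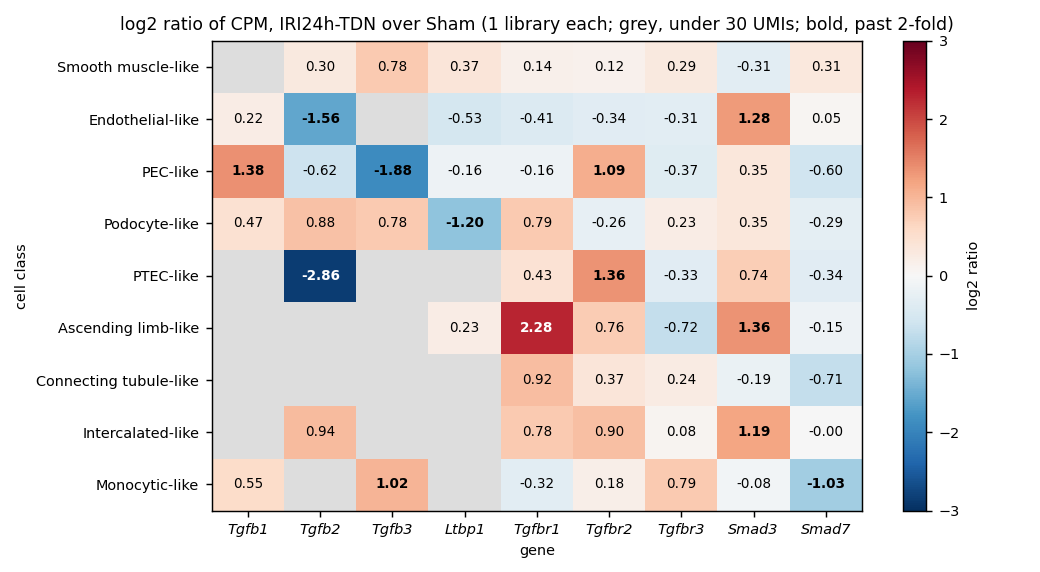
log2 difference of each of the 9 genes (columns) between IRI24h-TDN and Sham in each of the 9 compared cell classes (rows), with positive values for a higher level in IRI24h-TDN, grey for under 30 UMIs and bold for past 2-fold. The largest positive value is Tgfbr1 in ascending limb-like cells (2.28) and the lowest is Tgfb2 in PTEC-like cells (-2.86), which rests on 2 UMIs in IRI24h-TDN.

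In ascending limb-like cells the signalling receptor and Smad3 were higher in IRI24h-TDN. Tgfbr1 had 45.4 CPM in Sham (42 UMIs in 131 cells) and 220.4 CPM in IRI24h-TDN (1213 UMIs in 514 cells), a log2 difference of 2.28 (1.83 to 2.76). Smad3 had 28.1 CPM in Sham and 72.1 CPM in IRI24h-TDN, a log2 difference of 1.36 (0.79 to 1.99). In thinned cells the share with a Tgfbr1 UMI was 10.7% in Sham and 35.3% in IRI24h-TDN. These were 2 of the 6 members tested, where 18.5% of all genes in these cells passed 2-fold, and the median log2 difference was 0.50 over the members and -0.06 over all genes. Beside them, the ascending limb marker list itself (6 of 6 markers found in both) stood at 21895 CPM in Sham and 4548 CPM in IRI24h-TDN, and the median depths were 5774 and 10252.5 UMIs. The part of these shifts in the result was not tested.

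The same direction for Tgfbr1 was seen in other distal classes, short of 2-fold or on few cells. Connecting tubule-like cells had 107 CPM in Sham, 202 CPM in IRI24h-TDN and 193 CPM in the 29 cells of IRI24h-TD, with a log2 difference of 0.92 (0.70 to 1.16) between the first pair. None of their 5 members tested passed 2-fold, where 14.7% of all genes did, with medians of 0.24 over the members and -0.02 over all genes. Distal convoluted tubule-like cells had 50.3 CPM of Tgfbr1 in the 49 cells of Sham and 147 CPM in IRI24h-TDN, and were left out of the comparison for that cell number.

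Intercalated-like cells had 22.03 CPM of Smad3 in Sham and 50.2 CPM in IRI24h-TDN, a log2 difference of 1.19 (0.73 to 1.68), and this was the 1 member of 6 past 2-fold, where 13.8% of all genes were. The medians were 0.84 over the members and -0.01 over all genes. The make-up of the class moved with it: the Slc26a4 cluster, which is rich in Smad3, held 51 cells against 131 of the Aqp6 cluster in Sham, and 195 against 161 in IRI24h-TDN. Within the Slc26a4 cluster Smad3 was 56.5 CPM in Sham and 73.1 CPM in IRI24h-TDN, and within the Aqp6 cluster 3.7 and 9.3 CPM. Tgfb2 stood at 12.5 and 23.9 CPM over the class (log2 0.94), at 5.5 and 28.9 CPM in the Slc26a4 cluster and at 16.2 and 15.1 CPM in the Aqp6 cluster. The 5.5 CPM of Sham came from 51 cells and lay near their floor of 3 counts (4.13 CPM). The 3.7 CPM of Smad3 in the Aqp6 cluster of Sham also lay near its floor (2.20 CPM).

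In PTEC-like cells the ligand-binding receptor was higher after IRI. Tgfbr2 had 39.3 CPM in Sham, 101 CPM in IRI24h-TDN and 79.7 CPM in IRI24h-TD, with a log2 difference of 1.36 (1.12 to 1.60) between IRI24h-TDN and Sham. Within the class, the cluster led by Kap and Slc7a13 had 39.3 CPM in Sham and 115 CPM in IRI24h-TDN (76 cells). The cluster led by the injury genes Krt20 and Havcr1 had 24.7 and 97.2 CPM (41 cells in IRI24h-TDN). In the cluster led by Gatm and Slc5a12 the levels were 43.5 and 50.7 CPM, with 26 cells in IRI24h-TDN, and this pair lay within counting error. Tgfb2 had 6.0 CPM in Sham (54 UMIs) and 0.83 CPM in IRI24h-TDN (2 UMIs), a log2 difference of -2.86 (-5.94 to -0.94), but 8.6 CPM in IRI24h-TD (8 UMIs), and 1 cell held 20.3% of the pooled UMIs. These were 2 of 6 members, where 27.5% of all genes passed 2-fold, and the medians were 0.05 over the members and 0.11 over all genes. The PTEC marker list (14 of 14 markers found in both) stood at 60047 CPM in Sham and 11619 CPM in IRI24h-TDN, the PEC list in the same cells at 187 and 889 CPM, and their part in the result was not tested.

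In PEC-like cells 3 of 9 members passed 2-fold between IRI24h-TDN and Sham, where 17.5% of all genes did, with medians of -0.16 over the members and -0.06 over all genes. Tgfbr2 had 74.6 CPM in Sham, 158 CPM in IRI24h-TDN and 148 CPM in IRI24h-TD, with log2 differences from Sham of 1.09 (0.90 to 1.27) and 0.99 (0.81 to 1.17). The first fell short of 2-fold under 4 alternative settings (0.89 at the lowest), and stood at 0.995 without the 1 cell with most UMIs in IRI24h-TDN. Both libraries after IRI were thus above Sham, which the 2 comparisons share. In the Gc cluster the differences were 1.05 and 1.19, and in the Tnc cluster 0.83 and 0.32. The share of thinned cells with a Tgfbr2 UMI was 13.4% in Sham, against 24.0% and 25.2% in IRI24h-TDN and IRI24h-TD.

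The ligands of PEC-like cells differed in direction. Tgfb1 had 4.0 CPM in Sham (27 UMIs), 10.5 CPM in IRI24h-TDN (34 UMIs) and 6.5 CPM in IRI24h-TD (22 UMIs), with a log2 difference of 1.38 (0.60 to 2.16) in IRI24h-TDN and 0.69 (-0.20 to 1.55) in IRI24h-TD. In IRI24h-TDN 1 cell held 32.4% of the UMIs, and without it the level was 7.1 CPM and the first difference 0.82, short of 2-fold, as it was with no correction between libraries (0.82). Tgfb3, whose levels are given above, had a log2 difference of -1.88 (-2.80 to -1.07) in IRI24h-TDN and -0.10 (-0.62 to 0.40) in IRI24h-TD. The second value rests on 1 cell: without it the difference was -0.83, and at resolution 0.5 it was -1.25, past 2-fold lower. Tgfb2 had log2 differences of -0.62 and -0.65, and the inhibitor Smad7 of -0.60 and -0.46, all short of 2-fold. The make-up of the class moved with Tgfb3: the Tnc cluster, which holds most of it, made up 389 of the 747 PEC-like cells of Sham, 96 of 255 in IRI24h-TDN and 152 of 320 in IRI24h-TD, and within it the differences from Sham were -1.06 and 0.14, the latter -0.65 without the 1 cell that held 42.6% of the UMIs of IRI24h-TD. The PTEC marker list of 14 genes in PEC-like cells, of which 0, 1 and 2 were at 0, stood at 4072, 1908 and 1501 CPM in Sham, IRI24h-TDN and IRI24h-TD, and its part was not tested.

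None of the 9 members passed 2-fold in PEC-like cells between IRI24h-TD and Sham, where 12.6% of all genes did, with medians of 0.09 over the members and 0.01 over all genes. Between the 2 libraries after IRI, which differ in the sort, 1 of 9 passed, where 4.96% of all genes did, with medians of 0.05 and 0.06. That member was Tgfb3, at 14.8 CPM in IRI24h-TD and 4.3 CPM in IRI24h-TDN (log2 1.78, 0.90 to 2.75), and the lower value rests on 14 UMIs. Without the 1 cell that held 20 of the 50 UMIs of IRI24h-TD the difference was 1.04.

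In podocyte-like cells, the largest class, counting error was small and the differences were modest. Ltbp1 was the 1 member of 9 past 2-fold between IRI24h-TDN and Sham, where 13.4% of all genes passed, with medians of 0.35 over the members and -0.05 over all genes. It had 2.3 CPM in Sham (84 UMIs), 0.99 CPM in IRI24h-TDN (49 UMIs) and 0.97 CPM in IRI24h-TD (81 UMIs), with log2 differences of -1.20 (-1.74 to -0.67) and -1.24 (-1.69 to -0.78). This is a trace level in 18374 cells, and the marker list of smooth muscle, the class richest in Ltbp1, stood in the same podocyte-like cells (7 of 7 markers found in each library) at 23.6, 18.5 and 5.87 CPM in Sham, IRI24h-TDN and IRI24h-TD. Its part was not tested. It was also the 1 member of 9 past 2-fold between IRI24h-TD and Sham, where 14.7% of all genes passed, with medians of 0.40 and -0.03.

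Tgfbr1 of podocyte-like cells had 10.4 CPM in Sham, 18.0 CPM in IRI24h-TDN and 19.98 CPM in IRI24h-TD, with log2 differences from Sham of 0.79 (0.62 to 0.97) and 0.95 (0.79 to 1.11). Tgfb2 was higher by 0.88 and 0.81, Tgfb3 by 0.78 and 0.77, and Smad3 by 0.35 and 0.40. Tgfbr3 differed by 0.23 and 0.25. Tgfbr2 had log2 differences of -0.26 and -0.16. Between IRI24h-TD and IRI24h-TDN none of the 9 passed 2-fold, where 2.42% of all genes did, with medians of 0.02 over the members and 0.02 over all genes, and the largest difference among the members was 0.18 (Smad7).

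Smooth muscle-like cells, which had the highest levels of Tgfb2, Tgfb3 and Ltbp1, had none of 8 members past 2-fold between IRI24h-TDN and Sham, where 8.88% of all genes passed, with medians of 0.30 over the members and 0.03 over all genes. Tgfb3 came closest, at 119 and 205 CPM (log2 0.78, 0.55 to 1.02). In the Ren1 cluster it had 50.9 CPM in Sham and 140.0 CPM in IRI24h-TDN, a log2 difference of 1.46 (0.98 to 1.96), and in the Acta2 cluster 185 and 280.3 CPM, a difference of 0.60. Ltbp1 differed by 0.37 (0.23 to 0.51) and Tgfb2 by 0.30 (0.08 to 0.52).

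Endothelial-like cells had 2 of 8 members past 2-fold, where 14.3% of all genes passed, with medians of -0.32 over the members and -0.02 over all genes. Tgfb2 was lower in IRI24h-TDN, at 67.7 CPM against 199.8 CPM in Sham, a log2 difference of -1.56 (-2.14 to -1.02). Smad3 was higher, at 46.4 CPM (24 UMIs) against 19.2 CPM (14 UMIs), a difference of 1.28 (0.27 to 2.34), or 0.88 as a mean over cells. The podocyte marker list in endothelial-like cells (10 of 10 markers found in both libraries) stood at 16517 CPM in Sham and 9296 CPM in IRI24h-TDN, and its part was not tested.

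Monocytic-like cells had 2 of 7 members past 2-fold, where 21.1% of all genes passed, with medians of 0.18 over the members and 0.23 over all genes. Tgfb3 was higher, at 12.5 CPM in Sham (19 UMIs) and 25.3 CPM in IRI24h-TDN (148 UMIs), a log2 difference of 1.02 (0.33 to 1.79), which fell short of 2-fold under 4 alternative settings (0.45 at the lowest). Smad7 was lower, at 62.9 and 30.8 CPM, a difference of -1.03 (-1.40 to -0.66). Without the 1 cell with most UMIs, taken from IRI24h-TDN for Tgfb3 and from Sham for Smad7, the differences were 0.97 and -0.98, both short of 2-fold. Tgfb1 differed by 0.55 (0.17 to 0.96) and Tgfbr1 by -0.32 (-0.46 to -0.18). The make-up of the class moved with these values: the Chil3 cluster, which is poor in Tgfbr1 and Tgfb3, held 21 of the 306 cells of Sham and 202 of the 909 cells of IRI24h-TDN. Within the complement-expressing cluster alone the differences were 1.02 for Tgfb3, -1.21 for Smad7, 0.34 (-0.10 to 0.81) for Tgfb1 and -0.34 (-0.49 to -0.20) for Tgfbr1.

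Of a list of 27 other gene names of the pathway, 26 were in the tables, which use Ctgf in place of its newer name Ccn2. Between IRI24h-TDN and Sham they differed from class to class. In podocyte-like cells 5 of 21 were past 2-fold higher and none lower, where 5.01% of all genes were higher and 8.36% lower. They were the matrix protein gene Ctgf (653 and 1687 CPM), the Smad corepressor Tgif1 (12.3 and 73.0 CPM), the latent-complex activator Thbs1 (36.6 and 81.6 CPM), Klf10 and Tgfbi. Tgfbi was a trace there, at 0.41 CPM (15 UMIs) in Sham and 0.83 CPM (41 UMIs) in IRI24h-TDN, and the other library after IRI lay below Sham at 0.07 CPM (6 UMIs).

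In monocytic-like cells 5 of 20 were higher and none lower, where 13.8% of all genes were higher and 7.31% lower. Thbs1 had 95.7 CPM in Sham and 1216 CPM in IRI24h-TDN (log2 3.67, 3.43 to 3.91), but its UMIs lay in the Chil3 cluster, whose share of the class differed between the libraries. In that cluster Thbs1 stood at 1098 CPM in the 21 cells of Sham and 4833 CPM in the 202 cells of IRI24h-TDN. In the complement-expressing cluster it had 39.4 and 28.04 CPM. Ctgf was also among the 5 (log2 1.19) and turned sign under 4 other settings (-0.64 at the lowest). Within the complement-expressing cluster 3 of 18 were higher and 1 lower, where 15.3% of all genes were higher and 6.96% lower, and the 3 were the corepressor gene Ski, Pmepa1 and Tgfbi.

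In PEC-like cells none was higher and 5 of 23 were lower, where 6.14% of all genes were higher and 11.4% lower. Those were the latent binding proteins Ltbp3 (183 and 62.0 CPM) and Ltbp4 (109 and 26.2 CPM), the receptor gene Acvrl1, the decoy receptor gene Bambi and the inhibitor Smad6. In the Gc cluster 4 of 20 were lower and none higher, where 11.2% of all genes were lower and 6.39% higher. In the Tnc cluster 1 of 22 was lower (Ltbp4) and 1 higher (Tgif1), where 7.66% of all genes were lower and 4.35% higher. In IRI24h-TD Ltbp3 and Ltbp4 of PEC-like cells stood at 81.6 and 46.4 CPM.

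In the tubule, ascending limb-like cells had 4 of 20 higher and 1 lower, where 18.5% of all genes passed in either direction. Connecting tubule-like cells had 2 of 18 and 1 (14.7% of all genes), intercalated-like cells 4 of 19 and 0 (13.8%), and PTEC-like cells 1 of 19 and 3 (27.5%). Endothelial-like cells had 4 of 22 higher and 1 lower (14.3%), and smooth muscle-like cells 2 of 23 and 2 (8.88%). Between IRI24h-TD and Sham, PEC-like cells had 0 of 23 higher and 4 lower (12.6%), and podocyte-like cells 4 of 20 higher and 1 lower (14.7%). Between the 2 libraries after IRI, Tgfbi was the 1 gene past 2-fold in each of these classes, lower in IRI24h-TD, where 4.96% of all genes passed in PEC-like and 2.42% in podocyte-like cells.

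The genes whose levels ran most like each member over the 13 classes were named from 7731 candidates, by the correlation of log2(CPM + 10). Classes share libraries and free RNA, so the values describe likeness only. Ltbp1 ran with Eln (elastin, r = 0.99), Casp12 (0.98) and Rhoj (0.98), Tgfb3 with Itga8 (0.96), Corin (0.94) and Nr2f1 (0.93), and Tgfb2 with Afap1l2 (0.94), Epas1 (0.93) and Cavin3 (0.93). Tgfb1 ran with S100a4 (0.96), Mnda (0.95) and Bst2 (0.95). Tgfbr3 ran with Tshz2 (0.97), Sparc (0.97) and Mxra8 (0.96), Tgfbr2 with Ifi35 (0.94), Man1c1 (0.93) and Cmklr1 (0.90), and Smad7 with Cd200 (0.93), Hspg2 (0.92) and Id3 (0.92). No gene followed Tgfbr1 above 0.86 (B4galt6, Vav3 and Ctsc) or Smad3 above 0.76 (Ctsl). Between members, Tgfb2 and Ltbp1 had r = 0.86, Tgfb2 and Smad7 0.84, Tgfbr1 and Tgfbr2 0.18, and Tgfbr1 and Tgfbr3 -0.63.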

How the data were processed

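Single cells were captured by BD Rhapsody. The files as deposited hold raw UMI counts, with genes against barcodes, in 1 table for each library. The submitters' processing notes name CASAVA 1.8, UMI-tools, Seurat and mm10; the aligner and the strand setting were not given in the sources used here. The study's text says that multiplets were excluded, but not whether this came before deposit. No cell was removed as a doublet; a score from simulated doublets was used in an alternative that left out the 6% of cells scoring highest. Barcodes with 200 or more genes and 50% or fewer mitochondrial UMIs were kept, normalised to 10000 UMIs per cell, and reduced to 2000 variable genes and 30 components, with a correction between libraries (theta 2). They were clustered with Leiden (15 neighbours, resolution 1) in leidenalg 0.10.2, and named from fixed markers. The variable genes were chosen with scanpy 1.11.5. A lower limit on marker scores, their weighting, and the rules that leave mitotic clusters, and clusters with 8 or more podocyte markers in 50% of cells, unnamed were set after seeing the data. Library totals were 69980443 UMIs (Sham), 92355554 (IRI24h-TDN) and 93470709 (IRI24h-TD). CPM, ratios and exact intervals were computed from summed counts with scipy 1.17.1 (Python 3.11.15), and edgeR 4.0.16 (R 4.3.3) served only for an alternative scaling. The steps were tested on simulated data. The members, lists and rules were chosen with earlier results of these data known. All 9 members are named, together with other pathway genes past 2-fold and the 3 genes most like each member (50 CPM or more in a class). Some genes of the lists are not reported here. Alternatives covered barcode filters, variable genes, resolution, correction, thinning to 2400 or 1200 UMIs, scaling, UMI minimums, doublet scores and leaving out the 1 cell with most UMIs, in both libraries or, added after seeing the data, in 1.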

Additional observations from a re-analysis of the deposited data

Results flagged for a closer look

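Between IRI24h-TDN and Sham, Tgfb3 differed in opposite directions in different classes, with a log2 difference of 1.02 in monocytic-like cells and -1.88 in PEC-like cells. The difference between these classes was not tested, since each condition was a single library.

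Tgfbr2 was also higher after IRI in cells that entered none of the comparisons between classes. These 605 unnamed cells carried both podocyte and parietal cell genes and were led by Dkk3 and Aldh1a1. Tgfbr2 stood in them at 27.5 CPM in Sham, 68.2 CPM in IRI24h-TDN and 74.5 CPM in IRI24h-TD, which are log2 differences from Sham of 1.31 (0.77 to 1.88) and 1.44 (0.95 to 1.96). Their level in Sham lay below those of podocyte-like (107 CPM) and PEC-like cells (74.6 CPM) of that library. None of the alternative settings was run on these cells, and whether they include doublets was not tested.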

How the results depend on the processing

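No paired analysis was possible because each condition had 1 library. The 13 pairs of a member and a class past 2-fold between IRI24h-TDN and Sham were between 10 and 18 under the alternatives, and all of the 13 pairs kept their sign in every alternative that gave a value. Of these, 4 fell short of 2-fold in some: Smad3 in endothelial-like cells (0.88 as a mean over cells), Tgfb1 in PEC-like cells (down to 0.82), Tgfb3 in monocytic-like cells (down to 0.45 with no correction between libraries) and Tgfbr2 in PEC-like cells (down to 0.89). An alternative chosen after seeing the data left out the 1 cell with most UMIs of the gene in 1 library at a time; 10 pairs passed without the cell of IRI24h-TDN and 15 without that of Sham, and Smad7 in monocytic-like cells (-0.98) joined those short of 2-fold. Between IRI24h-TD and Sham the count of 1 became 2 without the 1 cell of Sham, 4 at resolution 0.5 and 4 after thinning to 2400 UMIs, 3 with 500 or more genes and 3 with no correction, and 2 with TMM scaling and 2 without the 6% highest doublet scores. Between IRI24h-TD and IRI24h-TDN the count of 1 became 0 with 100 or more UMIs and 0 at resolution 0.5. The 51 pairs of another pathway gene and a class past 2-fold, summed over the 3 comparisons, became 32 with 100 or more UMIs. The 50 of 117 pairs of a member and a class with a UMI in 10% or more of thinned cells became 27 when thinned to 1200 UMIs. The cause of these shifts was not tested beyond the smaller number of features or UMIs that some of them leave. The class with the highest level stayed the same for 7 to 9 of the 9 members. TMM scaling shifted all log2 differences by 0.16 in ascending limb-like, -0.11 in monocytic-like and -0.19 in PTEC-like cells. Single libraries, classes of 100 or fewer cells, and levels of a few UMIs limit the precision.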

Other observations

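In the same 605 unnamed cells, 4 of 8 members passed 2-fold between IRI24h-TDN and Sham, where 11.2% of all genes did. Between IRI24h-TD and Sham 3 of 8 passed, where 12.1% did. Smad7 was lower after IRI, at 65.0 CPM in Sham, 26.7 CPM in IRI24h-TDN and 23.4 CPM in IRI24h-TD, with log2 differences from Sham of -1.28 (-1.88 to -0.72) and -1.48 (-1.94 to -1.02). Tgfb3 was at 24.8, 8.2 and 12.5 CPM in the same order, short of 2-fold in IRI24h-TD (-0.99, -1.68 to -0.29). Ltbp1 was at 30.2, 7.4 and 7.4 CPM, a log2 difference of -2.02 in both. Tgfbr3 was level, at 354 CPM over the libraries with log2 differences of -0.01 (-0.19 to 0.17) and 0.01 (-0.14 to 0.16). Both comparisons share the Sham library, and the alternative settings were not run on these cells.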
